A study of Mus musculus with 45 samples.

Results

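The Erbb family of receptors and its adaptor Grb7 were examined for copy number changes in mammary gland tumors of genetically engineered mice. Members were the probes that carry the name Egfr, Erbb2, Erbb3, Erbb4 or Grb7 on a 2-colour Agilent array for comparative genomic hybridization. Of these 5 names, 4 are on the array, with 7 probes among the 20910 named genes tested, and no probe is named Erbb4. DNA of 45 tumors from female mice, 1 array each, was compared with reference DNA described as pooled spleen, although the labels of that channel also name normal mammary tissue. Tumors belong to 8 models. They are BRCA1fl/fl;p53+/-;MMTV-cre (BRCA1-/-;p53+/-, n = 5), MMTV-c-Myc (MMTV-Myc, n = 5), C3(1)/SV40 T/t-antigens (C3(1)-Tag, n = 5), MMTV-Her2/neu (n = 5), MMTV-H-Ras (MMTV-HRas, n = 5), p53fl/fl;MMTV-cre transplants (p53-/-, n = 6), MMTV-PyMT (n = 9) and MMTV-Wnt1 (n = 5). The MMTV promoter drives a transgene or Cre mainly in mammary epithelium, so that deletions by Cre affect those cells, and the p53-/- tumors grew in a host. No age is given in the labels, and nothing says whether tumors of a model came from separate mice, so that p-values measure the spread between these tumors.

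Egfr, Erbb2, Erbb3 and Erbb4 are transmembrane receptors that pair with each other when a ligand binds, and all but Erbb3, whose kinase is weak, are active tyrosine kinases. Ligands of the EGF type bind Egfr, neuregulins bind Erbb3 and Erbb4, and Erbb2 has no known ligand of its own but is the preferred partner of the others. Grb7 is an adaptor that binds the phosphorylated receptors. It lies close to ERBB2 in the human genome, where both are often amplified together in HER2-positive breast cancer, and the pair is also close together in the mouse.

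Ratios are log2 of Cy3 over Cy5 with the median of the autosomal probes of an array set to 0, and positive values stand for more tumor than reference DNA. This direction is opposite to the dye labels, which give Cy5 to the tumor, and is the one in which the authors' interval table runs. It was taken after values had been seen, and dyes as labelled would turn the sign of every value below. The arrays lie on 18 slides scanned on 10 dates. All BRCA1-/-;p53+/- tumors lie on slides and scan dates without another model, so that batch and model cannot be told apart there. The slides of MMTV-HRas tumors also hold that model alone. The SD of a single probe was 0.158 to 0.475 on the log2 scale. Spots well above background in both channels made up 96.6 to 99.8% of an array. The lowest correlation between arrays was -0.30 over all probes and -0.39 over autosomal gene means, values that also bear on the dye direction of single arrays. Tumors C3TAg_5RPT and C3TAg_7RPT of C3(1)-Tag had nearly the segment profiles of the MMTV-Her2/neu tumors H2N53 (r = 0.832 over autosomal genes) and H2N61 (r = 0.976), and whether each pair is the same DNA was not tested. Over the gene values in place of segment means the r of these pairs was 0.545 and 0.595. The Wnt1 probe of tumor Wnt_4635 was at 0.07, the lowest of the 5 MMTV-Wnt1 tumors, whose median was 1.33, so that its label may be in doubt. Whether this probe reads the transgene is not given in the sources used here, and the label was not tested. In DNA of a whole tumor, fewer cells with a change and a smaller change per cell cannot be told apart.

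Egfr, by the coordinates of the files (build mm8), has probes on chromosome 11 from 16707588 to 16707647 and from 16759004 to 16759063. The Erbb2 probes lie far distal on the same chromosome, from 98232924 to 98232980 and from 98249049 to 98249099, and the single Grb7 probe follows from 98263216 to 98263275. Erbb3 has both probes near the end of chromosome 10, from 127989095 to 127989141 and from 127991691 to 127991750. Whether a probe lies in an exon or an intron is not given in the sources used here.

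One tumor amplified a receptor gene of the family, and that gene was Erbb3. Amplification was called where the mean log2 ratio of a gene's probes was at least 1, which 1 of the 180 pairs of member and tumor reached. Over all named autosomal genes 0.957% of such pairs passed, and 18.4% of the genes passed in at least 1 tumor. No tumor reached the threshold for Egfr, Erbb2 or Grb7, so that each had 0 of 45 tumors with an amplification, which allows up to 7.87% (upper bound of the 95% interval, Clopper-Pearson). The highest values were 0.61 for Egfr in PyMt 3, 0.70 for Erbb2 in PyMt342 and 0.60 for Grb7 in PyMt317, all MMTV-PyMT tumors. With dyes as labelled the count became 5, made of Grb7 in 4 tumors and Erbb3 in P53_2979. With loess normalization it was 0, and at a threshold of 0.58 it was 4.

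**Figure D1:**
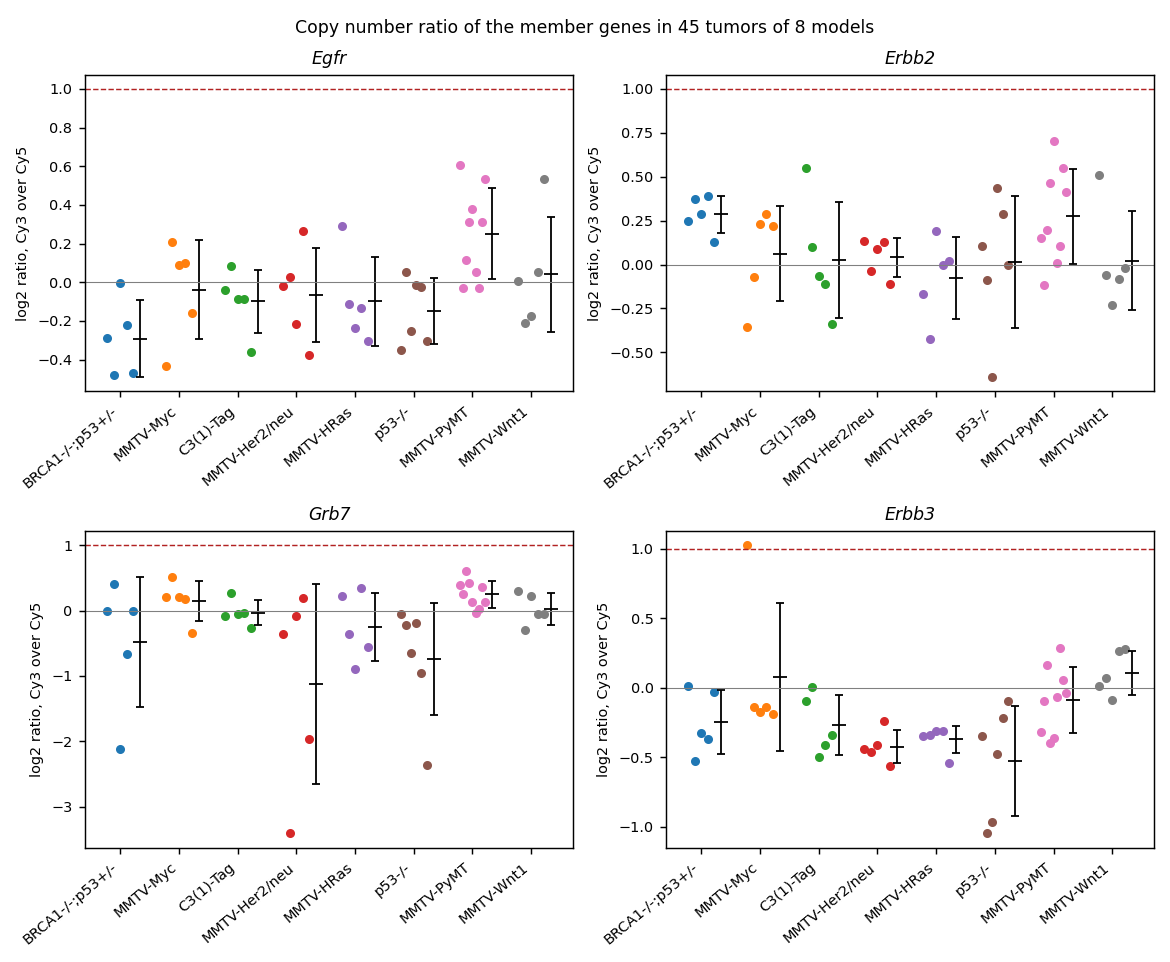
Log2 ratio (Cy3 over Cy5) of Egfr, Erbb2, Grb7 and Erbb3 in each tumor, by model; a point is the mean of the gene's probes in 1 tumor, the black bar gives the mean of the model with its SD and the dashed red line marks the threshold of 1. A single Erbb3 point, at 1.03 among the MMTV-Myc tumors, lies above the line, and the Grb7 panel reaches down to -3.41.

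Erbb3 had a log2 ratio of 1.03 in the MMTV-Myc tumor C Myc_04004021, with 0.95 at one probe and 1.1 at the other. The remaining MMTV-Myc tumors were at -0.14, -0.14, -0.18 and -0.19, so that this tumor stood apart from all others of its model. It lay in a gained segment of 280 probes with a mean of 1.25 that covered the last 10.3 Mb of probes on chromosome 10, from 119487187 to 129759311. The 10 nearest probes had a median of 1.36 and the chromosome one of 0.06. Of the 153 gene names in that segment 118 were at 1 or above, and Erbb3 ranked 115 from the highest, while the highest value, 2.78, belonged to Olfr807, an olfactory receptor gene. The gain thus reached far past Erbb3. Rnf41, a ubiquitin ligase that acts on Erbb3, lay in the same segment at 1.53. Shorter gained segments lay proximal to it, from 106488974 to 108388412 with a mean of 1.13 and from 116352687 to 117575704 with 1.34. Stretches at -0.05 and -0.02 lay between the gained segments. The authors' interval at Erbb3 in this tumor had a mean of 1.26. It began at 116352487, so that it also spans the nearer of these segments and the stretch after it.

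**Figure D2:**
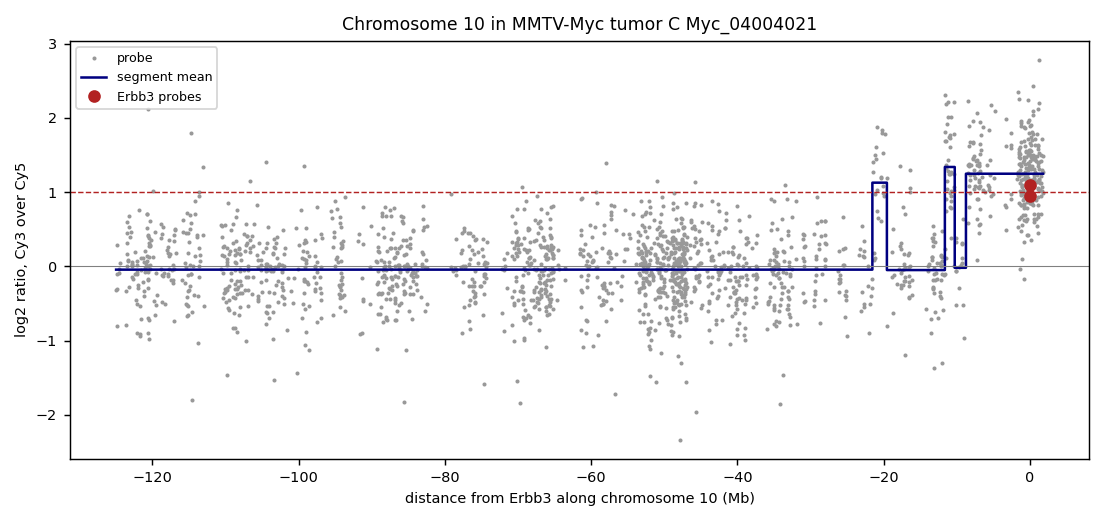
Log2 ratio of the probes of chromosome 10 in the MMTV-Myc tumor C Myc_04004021 against their distance from Erbb3 in Mb; grey points are probes, the blue line is the segment mean, red points are the Erbb3 probes and the dashed line marks 1. The last segment, with a mean of 1.25, holds both Erbb3 probes, and the largest proximal segment lies at -0.05. Shorter gained segments lie between them at 1.13 and 1.34.

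In MMTV-Her2/neu tumors the endogenous Erbb2 gene was near the array median. The mean of its probes was 0.13 in H2N1, -0.04 in H2N53, 0.09 in H2N61, 0.13 in H2N64 and -0.11 in H2NA. All 5 values lay inside the range of the other models, -0.64 to 0.70. The mean was 0.04 ± 0.11 (SD, n = 5), against 0.10 ± 0.29 (SD, n = 40) elsewhere, a difference of -0.06 that was smaller than either spread (two-sided exact permutation test, p = 0.633). Restricted to the 5 slides that hold an MMTV-Her2/neu array, the difference from the 10 other arrays there, pooled, was -0.17 (exact permutation test, p = 0.266). On the 4 of these slides that also hold other models, the difference within a slide ran from -0.44 to 0.12 and was below 0 on 3, and within the 3 shared scan dates it ran from -0.12 to 0.30. The limma contrast with the mean of the other 7 models was -0.05 with a standard error of 0.13. Segment means at Erbb2 called no gain in these tumors and 1 loss, in H2NA.

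The other models with a transgene whose endogenous counterpart has a probe gave different values. Wnt1, a secreted growth factor, averaged 1.06 ± 0.57 (SD, n = 5) in MMTV-Wnt1 tumors, from 0.07 to 1.5, against 0.13 ± 0.28 (SD, n = 40) elsewhere. Myc, a transcription factor, was at 0.17 ± 0.57 (SD, n = 5) in MMTV-Myc tumors against 0.53 ± 1.20 (SD, n = 40) elsewhere. Hras1, a small GTPase, was at -0.03 ± 0.10 (SD, n = 5) in MMTV-HRas tumors and -0.05 ± 0.51 (SD, n = 40) elsewhere. Which of these probes can bind DNA of the transgene is not given in the sources used here, so that the values bear on the sequence under the probe and not on the copy number of the transgene.

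The Erbb2 probes, 16.1 kb apart, gave different readings in many tumors. The proximal one had a mean of 0.23 ± 0.37 (SD, n = 45) and the distal one of -0.04 ± 0.32 (SD, n = 45), and their sign was the same in 26 of 45 tumors. Across tumors the Pearson r between them was 0.294, against 0.813 for the Egfr probes and 0.835 for the Erbb3 probes, as a description over arrays that share probe effects. In PyMt342 the proximal probe was at 1.03 and the distal one at 0.38, and in P53_8546 they were at 0.52 and -0.53. The difference between them averaged 0.27 ± 0.41 (SD, n = 45) on the log2 scale.

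Grb7 was far below its surroundings in 5 tumors of 3 models. The log2 ratio was -3.41 in H2N53, -2.36 in P53_8546, -2.12 in Brca_14, -1.97 in H2NA and -0.96 in P53_5851. In the other 40 tumors it lay between -0.89 and 0.60, with a median of -0.01. The 10 nearest probes of these 5 tumors had medians of -0.36 to 0.14, and the Erbb2 probes among them lay between -0.53 and 0.80. Being at least 1 below the 10 nearest probes was met in these 5 of the 180 member and tumor pairs, and no pair was as far above. The share was 0.551% over all autosomal genes and tumors, and 1.70% of the autosomal genes with 1 probe met it in 5 or more tumors. Among the 5 tumors the Cy3 signal of the spot was 130.4 to 615.7 and its Cy5 signal 1006 to 1387, while in the rest Cy3 was 493.5 to 2071 and Cy5 559.1 to 1804. No Grb7 spot carried an outlier flag or was dim.

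**Figure D3:**
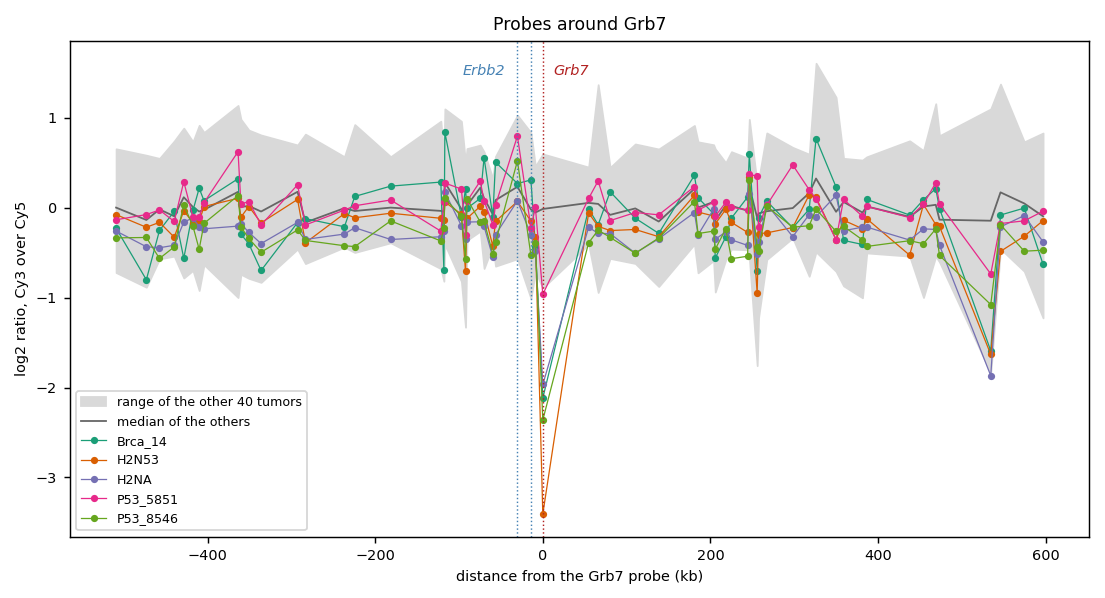
Log2 ratio (Cy3 over Cy5) of the probes within 600 kb of Grb7 on chromosome 11 against their distance in kb; coloured lines are the 5 tumors at least 1 below the 10 nearest probes, the grey band is the range and the dark line the median of the other 40. The drop to between -3.41 and -0.96 is at the Grb7 probe, and the nearby Erbb2 probes (dotted blue) stay within or near the grey band.

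Since a single probe reads Grb7, this value could not be set against a second probe of the gene. In H2N53 the segment at Grb7 held 5 probes with a mean of -0.85 and was called lost. C3TAg_5RPT, whose profile is nearly that of H2N53, had -0.05 at Grb7. The named genes on other chromosomes with the most alike pattern over the 45 tumors were Plaur (r = 0.939, chromosome 7), the urokinase receptor, AK053968 (r = 0.891, chromosome 10) and Rcn3 (r = 0.888, chromosome 7), each read by 1 probe. Plaur was at -3.58 to -1.41 in the 5 tumors and at -1.27 to 0.47 in the remaining 40. Rcn3 was at -3.92 to -1.58 against -1.52 to 0.26. Their 10 nearest probes were at -0.42 to -0.05 and at -0.39 to 0.09 in the 5 tumors, so that Plaur and Rcn3 were also low as single probes. AK053968 was at -4.14 to -0.66 in the 5 tumors and at -0.80 to 0.33 in the others. The part of probe effects in this was not tested.

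Gains and losses were read from segments, with a mean of at least 0.2 in size. Members were gained in 19 of 180 pairs and lost in 27, that is 10.6% and 15%, where 13.4% of all autosomal gene and tumor pairs were gained and 11.0% lost. With dyes as labelled the members' counts were 27 gained and 19 lost, and the shares over all genes change places likewise. The changes occurred in 21 of 45 tumors. Egfr was gained in 5 and lost in 7, Erbb2 gained in 6 and lost in 4, Grb7 gained in 6 and lost in 5, and Erbb3 gained in 2 and lost in 11. At a threshold of 0.3, losses were left in 2 tumors for Egfr, 0 for Erbb2, 1 for Grb7 and 10 for Erbb3. Every gain lay in a segment of 222 or more probes. Among the losses, 2 lay in segments of 5 probes and under 1 Mb, at Grb7 in H2N53 and at Erbb3 in C Myc_04005648, where the gene's own ratio was -0.18 and that of its 10 nearest probes -0.03. In the authors' intervals 30 pairs were gained and 16 lost, with losses of Egfr in 4, Erbb2 in 2, Grb7 in 2 and Erbb3 in 8 tumors. Gains there were of Egfr in 7, Erbb2 in 9, Grb7 in 9 and Erbb3 in 5 tumors.

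**Figure D4:**
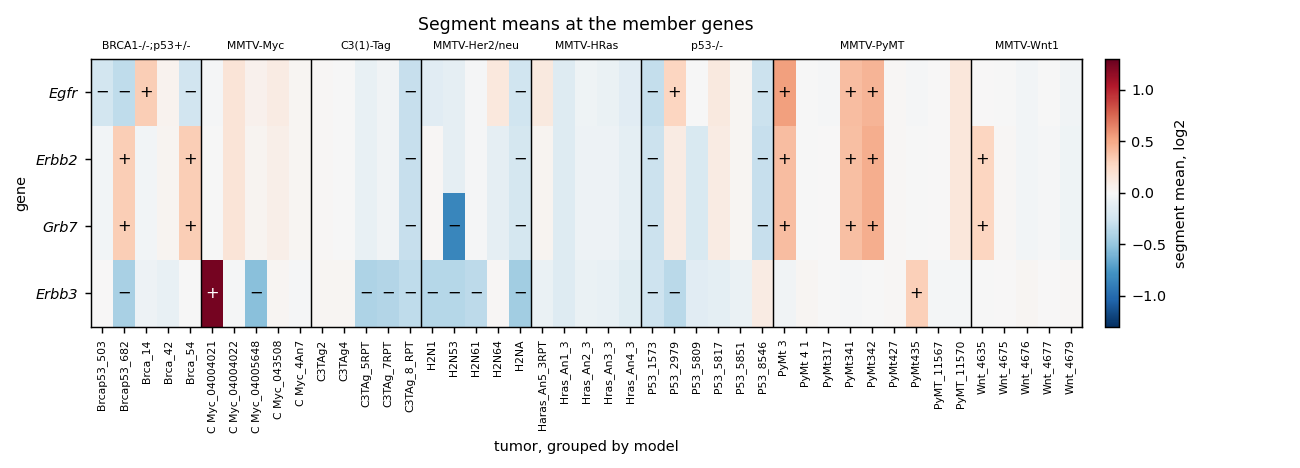
Segment mean (log2) at Egfr, Erbb2, Grb7 and Erbb3 in each of 45 tumors, grouped by model; red is higher and blue lower than the array median, and + and − mark means of at least 0.2 in size. The rows of Erbb2 and Grb7 are alike in 44 of 45 tumors, where both lie in the same segment. Egfr is gained with them in 3 MMTV-PyMT tumors. Erbb3 is lost in 4 of 5 MMTV-Her2/neu tumors, whose chromosome 10 medians are as low.

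Erbb2 and Grb7, 22.2 kb apart between their probes' middles, had the same state in 44 of 45 tumors, and H2N53 was the exception. In those 44 tumors both lay in the same segment, so that the shared state follows from the segmentation. Between the ratios of the genes' own probes the Pearson r was 0.148. Egfr, on the same chromosome, shared the state of Erbb2 in 39 of 45. Both were gained in 3 tumors, lost in 4 and changed in opposite directions in 2. Those gained were PyMt 3, with segment means of 0.54 at Egfr and 0.40 at Erbb2, PyMt341 with 0.40 and 0.39, and PyMt342 with 0.45 and 0.47. Chromosome 11 as a whole had medians of 0.41, 0.34 and 0.41 in these tumors. In the BRCA1-/-;p53+/- tumors Brcap53_682 and Brca_54 Erbb2 and Grb7 were gained, with segment means of 0.32 in each tumor, while Egfr was lost with -0.33 and -0.25. The authors' intervals also hold the Egfr loss in Brcap53_682 but none in Brca_54. Egfr was also lost in Brcap53_503 (-0.24) and gained in Brca_14 (0.32), where its own probes averaged -0.0012 and its 10 nearest 0.21. Erbb2 and Grb7 were also gained without Egfr in Wnt_4635, with 0.28, the tumor whose label may be in doubt.

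The level of Egfr varied with the model. Its mean was highest in MMTV-PyMT with 0.25 ± 0.24 (SD, n = 9) and lowest in BRCA1-/-;p53+/- with -0.29 ± 0.20 (SD, n = 5), a model on slides and scan dates of its own. Between them came MMTV-Wnt1 with 0.04 and MMTV-Myc, MMTV-Her2/neu, C3(1)-Tag, MMTV-HRas and p53-/- with -0.04 to -0.15, neighbours whose SDs of 0.16 to 0.30 overlap. The F test over the 8 models called it (limma, adjusted p = 0.0434), and 2 of the 4 members passed where 20.5% of all named genes did. With slide or scan date as a random block the Egfr test gave 0.102 and 0.134 (limma), and no member passed. Its call was also lost without the 4 arrays of nearly shared profile (0.0837) and on leaving out any of 19 of the 45 tumors. Of the 32 contrasts of a member in a model with the mean of the other 7 models, 2 passed, against 3.39% over all genes. One of them was Egfr in MMTV-PyMT, higher by 0.35 with a standard error of 0.09 (limma, adjusted p = 0.0475), a direction in which 0.512% of genes passed. MMTV-PyMT values ran from -0.03 to 0.61 with a median of 0.31, and those of the other models overlapped them.

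This call sat at its threshold. The adjusted p was 0.0857 with slide and 0.124 with scan date as a random block (limma), and on the 6 slides that hold MMTV-PyMT and other tumors the difference ran from -0.12 to 0.58, with 4 of 6 above 0. Over the 3 shared scan dates it was -0.11 to 0.52. Leaving out any of 28 of the 45 tumors took the adjusted p over the threshold, to at most 0.122, and the difference stayed between 0.31 and 0.39.

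In the direction used here Erbb3 was the member lost most often, and with dyes as labelled it was gained in 11 tumors and lost in 2. Its mean passed the F test over models (limma, adjusted p = 0.0256). That call was lost with slide (adjusted p = 0.0737) or scan date (0.0695) as a random block, without the 4 arrays of nearly shared profile (0.0585) and with normexp background correction (0.0958). The order ran from MMTV-Wnt1 with 0.11 ± 0.16 (SD, n = 5) over MMTV-Myc with 0.08 ± 0.53 (SD, n = 5), which rests on the amplified tumor, and MMTV-PyMT with -0.08 ± 0.24 (SD, n = 9) to BRCA1-/-;p53+/- with -0.25 and C3(1)-Tag with -0.27. The lowest were MMTV-HRas with -0.37 ± 0.10 (SD, n = 5), MMTV-Her2/neu with -0.42 ± 0.12 (SD, n = 5) and p53-/- with -0.52 ± 0.40 (SD, n = 6), which do not differ beyond their spread. Erbb3 was below 0 in 35 of 45 tumors and below its 10 nearest probes in 34, and its difference from them had a median of -0.12 over all 45.

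The contrast called for Erbb3 was p53-/-, lower by 0.35 with a standard error of 0.12 (limma, adjusted p = 0.0426), where 7.39% of genes passed in that direction. The p53-/- values were -1.05 in P53_2979, -0.97 in P53_5809, -0.48 in P53_5817, -0.35 in P53_1573, -0.21 in P53_5851 and -0.10 in P53_8546. The lowest pair came from arrays with a probe SD of 0.448 and 0.475, and the 10 nearest probes there were at -0.54 and -0.28. Without P53_2979 the difference fell to -0.25 (limma, adjusted p = 0.215) and without P53_5809 to -0.26 (adjusted p = 0.219), while without Brcap53_503 the adjusted p was 0.0509 and without P53_5817 it was 0.0629. No slide holds p53-/- and other tumors, so that slide and model cannot be told apart there. On the 2 shared scan dates the differences were -0.33 and -0.62, and with slide and scan date as random blocks the adjusted p was 0.0986 and 0.0553 (limma).

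Segments called a loss of Erbb3 in 4 of the 5 tumors of MMTV-Her2/neu, against 7 of the 40 elsewhere, and dyes as labelled make these 11 losses gains. Over all models 11.0% of autosomal gene and tumor pairs were lost, and the share within MMTV-Her2/neu was not taken. In MMTV-Her2/neu the segment means were -0.37 in H2N1, -0.37 in H2N53, -0.34 in H2N61 and -0.45 in H2NA, and the chromosome 10 medians of -0.38, -0.41, -0.35 and -0.50 were as low. These losses thus covered much of the chromosome and were not particular to Erbb3. H2N64, with 0.02 for the chromosome, had no call at Erbb3. The contrast of MMTV-Her2/neu with the other models was -0.24 with a standard error of 0.13 and was not called (limma, adjusted p = 0.439). The remaining losses were in C3TAg_5RPT, C3TAg_7RPT and C3TAg_8_RPT, with segments of 58.3 to 58.4 Mb, and in Brcap53_682, P53_1573, P53_2979 and C Myc_04005648. Of these the authors' intervals hold only those in C3TAg_7RPT, Brcap53_682 and P53_2979, and they add a loss in P53_5817. At Egfr, Erbb2 and Grb7 in C3TAg_5RPT they hold a gain of 0.3, where the segment mean was -0.10. Since C3TAg_5RPT and C3TAg_7RPT have nearly the profiles of H2N53 and H2N61, the counts of both models may not be independent, and without these 4 arrays Erbb3 was lost in 7 tumors. Gains of Erbb3 were called in C Myc_04004021 and in PyMt435, where the segment mean was 0.31. The authors' intervals hold these and also gains in Brca_14 (0.22), Brca_54 (0.27) and P53_8546 (0.4).

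**Figure D5:**
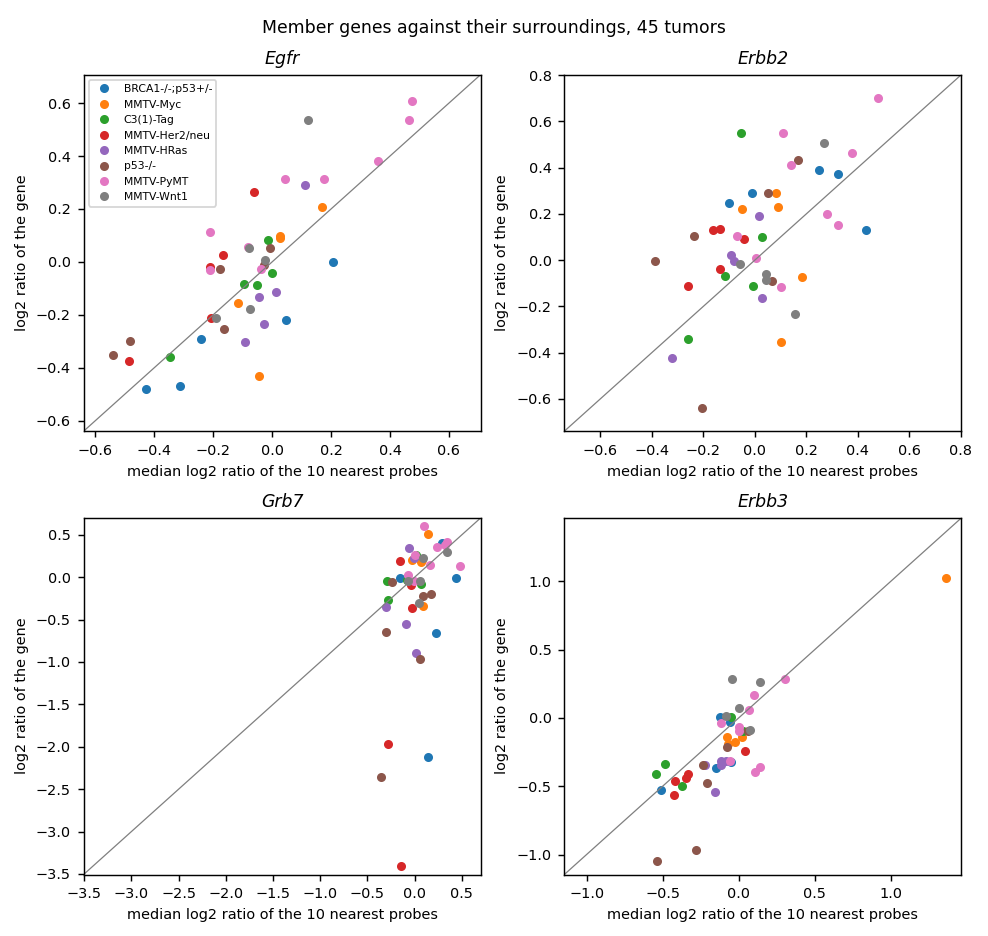
Log2 ratio of each member gene against the median of its 10 nearest probes in the same tumor, both log2 of Cy3 over Cy5; a point is 1 of 45 tumors, coloured by model, and the line marks equal values. In the Erbb3 panel 34 of 45 points lie below the line, with the amplified MMTV-Myc tumor at 1.03 against 1.36, and in the Grb7 panel 5 points lie at least 1 below it.

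Erbb2 and Grb7 had no contrast that passed under the processing used for the values above. The Erbb2 means ran from 0.29 ± 0.11 (SD, n = 5) in BRCA1-/-;p53+/- and 0.27 ± 0.27 (SD, n = 9) in MMTV-PyMT to -0.08 ± 0.23 (SD, n = 5) in MMTV-HRas, and the F test gave an adjusted p of 0.314 (limma). Fitted probe by probe, the F test passed at the distal Erbb2 probe (limma, adjusted p = 0.0426) and not at the proximal one (0.209). For Egfr and Erbb3 it passed at the first probe (0.0282 and 0.0145) and not at the second (0.114 and 0.0809). All 5 BRCA1-/-;p53+/- tumors, on slides and scan dates without another model, were above 0 at Erbb2, from 0.13 to 0.39. Grb7 ran from 0.25 ± 0.21 (SD, n = 9) in MMTV-PyMT to -0.74 ± 0.86 (SD, n = 6) in p53-/- and -1.13 ± 1.53 (SD, n = 5) in MMTV-Her2/neu, with an adjusted p of 0.0584 (limma F test). That test passed with normexp background correction (limma, adjusted p = 0.00382) and with no centring (0.0465). With normexp 2 contrasts of members passed, and that of Erbb3 in p53-/- was not among them. The lowest values behind the MMTV-Her2/neu and p53-/- means were those of H2N53, H2NA, P53_8546 and P53_5851 given above. All 6 p53-/- tumors were below 0 at Grb7, from -2.36 to -0.05 with a median of -0.43.

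The genes around Erbb2 had nearly its gains and losses by segment. Most were gained in 6 tumors and lost in 4, as Erbb2 was, and genes within the same segment have the same state by definition. Of the 22 measured among 24 listed neighbours, from Lasp1 to Top2a, 7 passed the F test over models, that is 31.8% beside 20.5% of all genes. Over this list and those of ligands, adaptors and regulators below, 14 genes passed, and this count was 2 with slide and 3 with scan date as a random block and 6 without the 4 arrays of nearly shared profile. The neighbours that passed were Lasp1 (limma, adjusted p = 0.0246), an actin-binding protein, Ppp1r1b (0.0342), an inhibitor of protein phosphatase 1, Stard3 (0.0429), a cholesterol-binding protein, Pnmt (0.00064), the enzyme that makes adrenaline, Pgap3 (0.0388), which remodels GPI anchors, Gsdma (0.0486), a gasdermin, and Nr1d1 (0.0313), a nuclear receptor of the clock. Neighbour and tumor pairs were gained in 13.7% and lost in 9.09%, near the 13.4% and 11.0% of all autosomal pairs. The single amplified value among them was Nr1d1 at 1.61 in PyMT_11567, from 1 probe whose 10 nearest were at 0.05, and the lowest was Csf3 at -1.76 in Hras_An4_3, also from 1 probe, with the nearest at -0.09. Stard3, which flanks ERBB2 in the human amplicon, did not pass 0.62 in any tumor.

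Among the ligand genes a cluster on chromosome 5 was often gained. Of 11 listed, 9 had a probe, and Nrg1 and Nrg2 had none by name. Pairs of a ligand and a tumor were gained in 17.5%, beside 13.4% of all autosomal pairs, and lost in 3.95%, beside 11.0%, with a median log2 ratio of -0.03 beside -0.0028 over all named autosomal genes. The F test called 3 of 9, beside 20.5% of all genes, namely Egf (limma, adjusted p = 0.0460), Epgn (0.0247) and Btc (0.0198). Areg, Epgn, Btc and Ereg lie together on chromosome 5 and were each gained in 9 tumors and lost in none, so that this one cluster counts several times in the share. Nrg3 was gained in 4 and lost in 5 tumors, and Nrg4 gained in 1 and lost in 5. By contrasts with the other models, Egf was lower and Tgfa higher in MMTV-HRas, Epgn was higher in p53-/- and Hbegf lower in BRCA1-/-;p53+/-, while 3.39% of the contrasts of all genes were called. None of these models shares a slide with another, so that slide and model cannot be told apart there. The highest ligand value was Epgn at 1.48 in P53_5809, from 1 probe in a segment of 0.41 with its 10 nearest at 0.13, and the lowest was Nrg4 at -0.85 in C Myc_04004021.

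Among 9 adaptors, which carry the signal from the receptors, 2 passed the F test, or 22.2% beside 20.5% of all genes. Grb2, the adaptor that brings Sos to the receptor, lies on chromosome 11 and was amplified in 3 tumors. It was highest in C Myc_04005648 at 1.5, in a segment of 1.29 with its neighbours at 1.65. The gain in that tumor was thus not particular to Grb2. In the F test Grb2 passed with an adjusted p of 0.00498 (limma), and by contrasts it was higher in MMTV-Myc. Sos1, the exchange factor of Ras, was lower in p53-/- and passed with 0.0223 (limma). The lowest adaptor value was Shc1 at -1.26 in PyMT_11567, from 1 probe with its neighbours at -0.01. Grb10 and Grb14, the relatives of Grb7, were not called (limma, adjusted p = 0.428 and 0.20). Grb10, on proximal chromosome 11, was gained in 5 and lost in 7 tumors. Of 7 regulators that restrain the receptors, 2 passed, or 28.6%, namely Errfi1 (limma, adjusted p = 0.0219), an inhibitor of the Erbb kinases, and Ptpn12 (0.0296), a phosphatase, which was higher in p53-/-. By contrasts Cblb was also higher in p53-/- and Lrig1 higher in MMTV-HRas. Beside these and the contrasts of Grb2 and Sos1, 3.39% of the contrasts of all genes were called. Rnf41 at 1.53 was the highest regulator value and Spry2 at -1.04 in P53_2979 the lowest.

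On other chromosomes the genes with the pattern most like Egfr were AK136802 (r = 0.698), AK038980 (r = 0.674) and Echdc1 (r = 0.667). For Erbb2 they were 2610028H24Rik (r = 0.700), Ptpn5 (r = 0.691) and Ppil4 (r = 0.651), and for Erbb3 Fxyd5 (r = 0.688), AK012661 (r = 0.681) and AK172972 (r = 0.659). These are Pearson coefficients of gene means over the same 45 arrays, the highest of 18964 genes compared for Egfr and Erbb2 and of 19536 for Erbb3, and the points share array noise.

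Erbb4 could not be read by name. In the order of genes on chromosome 1 in RefSeq (GRCm38.p6, used for names and order) it lies between Cps1 and Ikzf2. On the array the 7 probes before Ikzf2 that carry a gene name are called AK144050, from 67996301 to 68579477, and whether they lie in Erbb4 is not given in the sources used here. Their mean ran from -0.28 to 0.50 over the tumors, none reached 1, and segments there were gained in 7 tumors and lost in 1.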

How the data were processed

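Array comparative genomic hybridization of 45 tumors was analysed from the scanner output that the authors deposited, made with Agilent Feature Extraction (9.5.1.1 in the file headers, 10.7 in the submitters' processing notes). The deposited log10 ratio of a spot is Cy5 over Cy3, background-subtracted and dye-normalized by that software. The deposited fluorescence intensity of each channel was used for spot signals and normexp. The authors' table of intervals gives mean log2 ratios, and its intervals of 3 or more probes whose mean reached 0.2 in size served as an alternative (755 of 5412), and its p-values and the tables of single models were not used. The labels give Cy5 to the tumor, and ratios were turned to Cy3 over Cy5 because the interval table runs that way.

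Log2 ratios were centred on the autosomal median, control and outlier spots were left out, and probes of a name on a chromosome were averaged (42235 probes, 20910 names). Circular binary segmentation (Python 3.11.15, numpy 2.4.6, numba 0.67.0) split where the statistic passed 6 and kept segments of 5 or more probes. Model means were tested in R 4.3.3 with limma 3.58.1 and Benjamini-Hochberg adjustment over all names on the autosomes and chromosome X, and calls at an adjusted p under 0.05. Shares over all genes were taken on autosomes (20194 names). Over arrays, signal against background had medians of 3.67 to 16.7 for Cy3 and 2.09 to 14.4 for Cy5, and the number of arrays limits the precision. Segmentation, limma and the exact test were tested on simulated data.

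Genes named in the text are the members, the genes of each list called by the F test and its extremes, and the 3 genes on other chromosomes most like each member. Hras1, Wnt1 and Myc, as counterparts of transgenes, Olfr807, Tgfa, Hbegf, Areg, Ereg, Nrg3, Grb10, Grb14, Cblb and Lrig1 and the missing names were added after their values were seen. The members and lists were chosen with earlier results of these data known. Groups come from the labels.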

Additional observations from a re-analysis of the deposited data

Results flagged for a closer look

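Of 32 groups of a member in a model, 3 held a tumor far from the rest by Dixon's test, where chance flags about 1 in 20. Erbb3 in MMTV-Myc was at 1.03 in C Myc_04004021, with the other 4 tumors between -0.19 and -0.14. Erbb3 in MMTV-HRas was at -0.54 in Hras_An4_3, with the others between -0.35 and -0.31. Erbb2 in MMTV-Wnt1 was at 0.51 in Wnt_4635, with the others between -0.23 and -0.02, and this is the tumor whose label may be in doubt.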

How the results depend on the processing

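No paired analysis was possible because replicate numbers were given in accession order and only name tumors. Tumors of more than 1 model shared 6 of 18 slides, and slide was used as a block and for differences within these slides. The count of amplified pairs, 1, was 0 with loess, 5 with dyes as labelled and 4 at a threshold of 0.58, and without C Myc_04004021 it was 0 (0 to 1 leaving out each tumor). Gained pairs, 19, were 27 with dyes as labelled, 34 at a threshold of 0.1 and 30 in the authors' intervals, and 16 to 19 without single tumors. Lost pairs, 27, were 19 with dyes as labelled, 13 at 0.3, 44 at 0.1 and 16 in the authors' intervals, and 23 to 27 without single tumors. Members called by the F test, 2, were 0 with slide or scan date as a random block and 0 without C3TAg_5RPT, C3TAg_7RPT, H2N53 and H2N61, and 1 to 3 without single tumors. Called contrasts, 2, were 1 with the density peak as centre, with no centring, with loess, without those 4 arrays and without Wnt_4635, 0 with either block, and 0 to 3 without single tumors. List genes called, 14, were 6 without the 4 arrays, 2 with slide and 3 with scan date as a block, and 7 to 16 without single tumors. Pairs at least 1 from their surroundings, 5, were 4 to 5. The Erbb2 difference in MMTV-Her2/neu, -0.0634, was 0.0634 with dyes as labelled 0.00022 with the distal and -0.13 with the proximal probe alone, -0.12 with the density peak as centre, -0.03 with normexp, -0.02 with loess and -0.17 on the slides with an MMTV-Her2/neu array, and -0.09 to -0.03 without single tumors. Dyes as labelled turned the Egfr difference to -0.35 and that of Erbb3 to 0.35. The Egfr difference lost its call with no centring (limma, adjusted p = 0.0742), without the 4 arrays (0.0878) and without Wnt_4635 (0.0533), and that of Erbb3 with the density peak as centre (0.0640), normexp (0.0705) and loess (0.0503). With slide and scan date as blocks the F tests gave 0.102 and 0.134 for Egfr and 0.0737 and 0.0695 for Erbb3, and without the 4 arrays 0.0837 and 0.0585, while Erbb3 gave 0.0958 with normexp. Grb7 passed the F test with normexp (limma, adjusted p = 0.00382), with no centring (0.0465) and without any of H2N64, H2N61, Brca_14, Brcap53_682, P53_1573 and H2N1 (0.0186 to 0.0481). When single tumors were left out, the Egfr F test gave 0.0270 to 0.0870 and lost its call for 19 of 45 tumors, and that of Erbb3 gave 0.0151 to 0.0499. Reading gains from the 10 nearest probes alone, chosen after seeing the data, gave 11 losses of Egfr. The cause of these changes was not tested. A single-probe SD of up to 0.475 limits what 1 or 2 probes can show.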
